A study of Mus musculus with 18 samples.

Results

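The genes described here encode the enzymes and transporters of glycolysis together with the regulators and targets of the response to low oxygen. They are 35 genes listed by name, and all 35 were present in the raw count tables of both cell types, which hold 24421 gene symbols. RNA was sequenced in bulk from microglia, the resident macrophages of the brain, and from astrocytes, its main supporting glia, after sorting by flow cytometry from dissociated whole brains of untreated C57BL/6j mice. The groups were WT and APP_NLGF/NLGF (APP below), a homozygous knock-in of a humanised, mutated amyloid precursor sequence at the App locus, which is expressed by every cell that uses that promoter. Each of 4 WT and 5 APP mice gave 1 microglia and 1 astrocyte library, 18 in all. WT mouse 1 was female and WT mice 2 to 4 were male, and APP mouse 1 was male and APP mice 2 to 5 were female. The names of all libraries, of both genotypes, contain C3WT, and none from C3-deficient mice is described here. The labels read here give no age for the mice.

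Glycolysis splits glucose into pyruvate and yields ATP without oxygen. Glucose enters through facilitative transporters, is trapped by hexokinase, is committed at phosphofructokinase and ends as pyruvate, which either enters mitochondria through pyruvate dehydrogenase or is reduced to lactate and exported. Most steps have several enzymes encoded by paralogous genes, and tissues differ in which paralog they use. In astrocytes glycolysis is known as a source of lactate for neurons, and in activated macrophages it is known to rise with stimulation. When oxygen is sufficient, prolyl hydroxylases mark the alpha subunits of the hypoxia-inducible factor (HIF) for destruction, and when it is not, HIF switches on many of the glycolytic genes, the vascular growth factor gene Vegfa and the hydroxylase gene Egln3 itself.

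Library totals ranged from 8834866 to 11700620 counts in WT microglia, 11858295 to 18363154 in APP microglia, 10569776 to 21865752 in WT astrocytes and 18125387 to 22522407 in APP astrocytes. The labelled cell types had their markers: the 10 microglial markers summed to 28160 to 42750 CPM (counts scaled to a common library size) in the microglia libraries and 116.8 to 335.6 CPM in the astrocyte libraries, and the 10 astrocyte markers to 24560 to 44690 CPM in astrocytes and 497.8 to 1806 CPM in microglia. From those markers and the partner library of the same mouse, astrocyte RNA made up 1.63% to 6.10% of WT and 1.54% to 5.82% of APP microglia libraries, and microglial RNA 0.282% to 0.380% of WT and 0.895% to 1.15% of APP astrocyte libraries. WT mice 1 and 4 stood apart in the astrocyte sort, with summed endothelial markers of 531.5 and 456.3 CPM against 2613 and 3359 CPM in WT 3 and 2 and 2474 to 3918 CPM in APP. The counts of members called in astrocytes and for the difference of the responses are given with and without these 2 mice.

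Of the 35 genes 34 passed the filter on low counts in every comparison. The exception was Eno1, the ubiquitous enolase gene, with 0 to 7 counts in each of the 18 libraries. Of the 50-base words of its longest coding transcript, 72.2% also occur in transcripts of other genes, most of them in Eno1b, a near-identical copy, so its count does not give the level of the enzyme. Large shares of such words were also found for Gapdh (82.5%), Pgk1 (68.0%), Bnip3 (62.4%), Pgam1 (41.5%) and Pkm (34.4%), and the counts of these genes depend on how shared reads were treated, on which the sources used here are silent. Levels of these genes beside other genes are therefore uncertain.

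The first comparison asks which paralog each cell type used. By group means, the main paralog differed between microglia and astrocytes of both genotypes in 4 of the 9 families that could be read. In the prolyl hydroxylases of HIF it differed in APP mice only. There Egln3 took 51.3% to 64.7% in APP microglia, while Egln1 took 84.3% to 91.3% in astrocytes. Hexokinase RNA was Hk2 and Hk3 in microglia and Hk1 in astrocytes, phosphofructokinase was Pfkl against Pfkm, aldolase was Aldoa against Aldoc, and the lactate exporter was Slc16a3 beside Slc16a1 in microglia and Slc16a1 alone in astrocytes. Shares were taken within a library from counts per base of annotated exon, and the difference between the cell types was tested over the 9 mice by flipping its sign (exact paired permutation test, two-sided, 512 flips, smallest possible p 0.00391). Of 10 families 9 were tested, 1 gene each, and 8 passed after Benjamini-Hochberg adjustment. The enolases were left out because Eno1 could not be read.

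**Figure D1:**
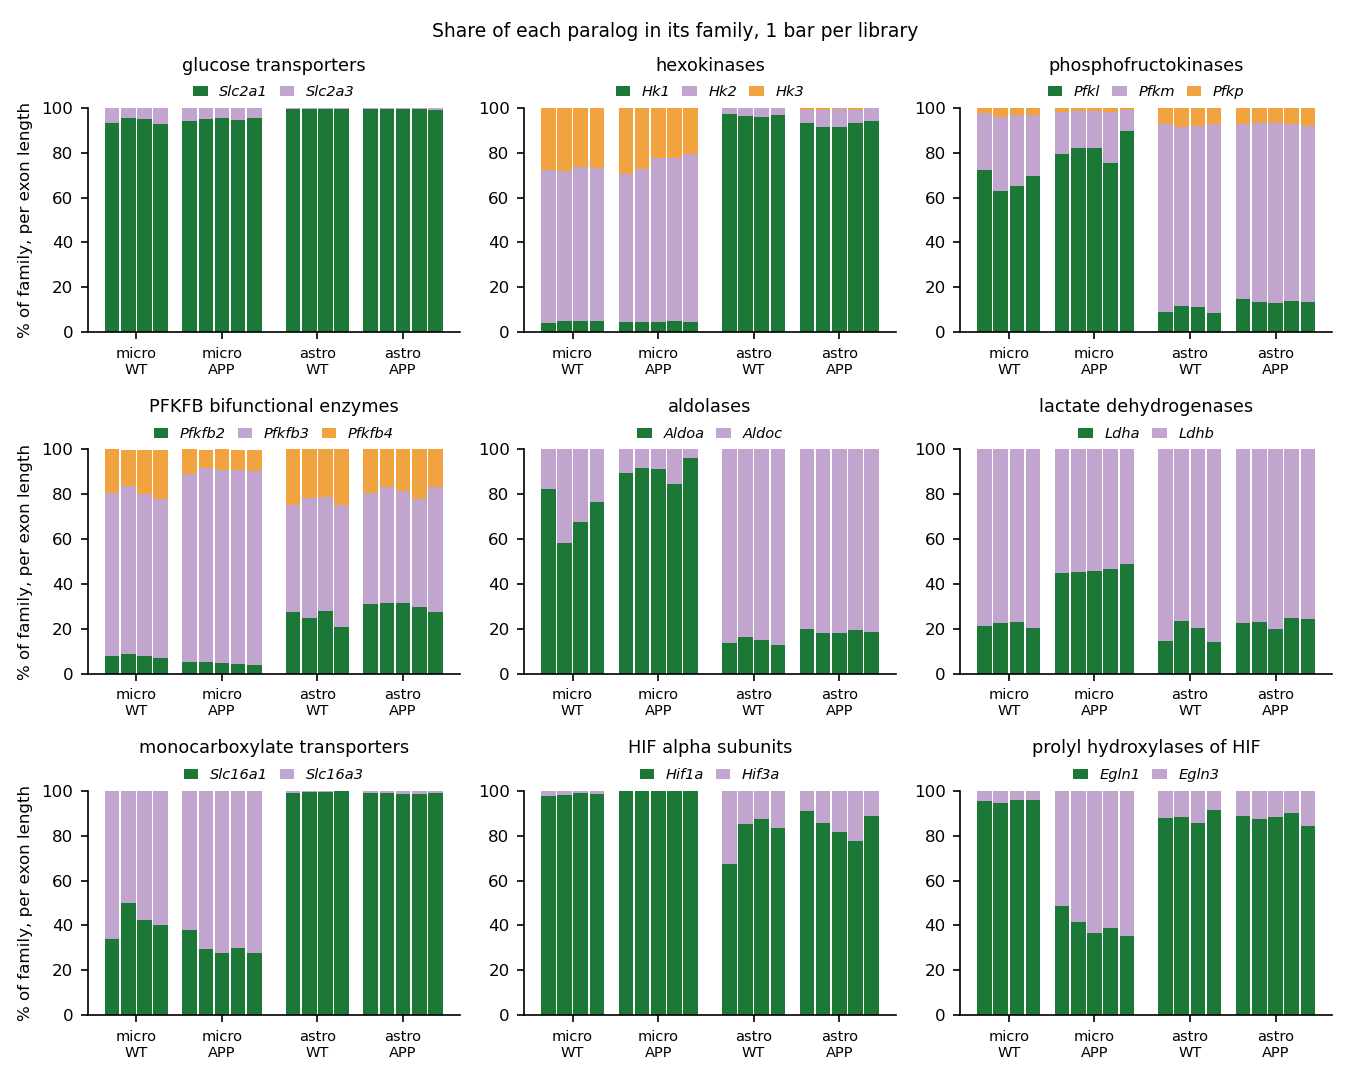
Share of each paralog in its family (vertical axis, percent of counts per exon base), with 1 bar for each of the 18 libraries, grouped by cell type (micro, astro) and genotype. Hk1 took 4.11% to 5.07% of the hexokinase bars in microglia and 91.7% to 97.1% in astrocytes, while Ldha and Egln3 took different shares in WT and APP microglia.

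Hexokinase, which phosphorylates glucose on entry, showed the widest gap. Hk1, the housekeeping form, took 4.11% to 5.07% of hexokinase RNA in microglia and 91.7% to 97.1% in astrocytes, a mean difference of -89.9 percentage points ± 2.09 (SD, n = 9 mice; exact p = 0.00391, adjusted p = 0.00503). Hk2, the inducible form bound to mitochondria, took 66.4% to 74.8% in microglia, and Hk3, typical of blood and myeloid cells, took 20.7% to 29.3%. In counts, Hk3 had 1103 to 1633 in each microglia library and 0 to 15 in each astrocyte library. The microglial RNA estimated in the astrocyte libraries would bring more than all of those astrocyte Hk3 counts (130% to 596% in APP and 341% or more in WT). The estimate thus exceeds what was counted, and subtracting it may take away too much. Hk3 RNA above the estimated level was not detectable in astrocytes at this depth.

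Phosphofructokinase, the committed step, was mostly Pfkl, the liver-type subunit, in microglia (63.1% to 89.6%) and mostly Pfkm, the muscle-type subunit, in astrocytes (78.3% to 84.3%). The Pfkl share differed by 63.5 percentage points ± 7.59 (SD, n = 9 mice; exact p = 0.00391, adjusted p = 0.00503). Pfkp, the platelet-type subunit, stayed a minor part in both, with 1.01% to 4.07% and 6.69% to 8.35%. Astrocyte RNA would bring 46.2% to 90.3% of the Pfkm counts of the microglia libraries. Of the bifunctional enzymes, which make and remove a sugar phosphate that activates phosphofructokinase, Pfkfb3 was the main gene in both cell types, at 71.1% to 86.8% in microglia and 48.0% to 56.0% in astrocytes. The tested member, Pfkfb2, took 3.95% to 8.54% in microglia and 20.95% to 31.5% in astrocytes (difference -21.95 percentage points ± 4.77, exact p = 0.00391, n = 9).

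Aldolase cuts the sugar into its triose parts. Aldoa, the general form, took 82.4%, 58.3%, 67.4% and 76.7% of aldolase RNA in WT microglia 1 to 4 and 84.5% to 96.3% in APP microglia, against 12.9% to 19.95% in astrocytes, where Aldoc, a brain form used as an astrocyte marker, made up the rest. The difference was 65.2 percentage points ± 11.4 (SD, n = 9 mice; exact p = 0.00391, adjusted p = 0.00503). Aldoc in microglia libraries was at the level that the astrocyte RNA in them would bring (121% to 165% of its counts in WT and 95.2% to 133% in APP). With that share subtracted, the Aldoa difference was 83.2 percentage points.

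The paralogs for lactate transport and for the reduction of pyruvate differed as well. Slc16a3, the low-affinity lactate exporter of strongly glycolytic cells, took 50.0% to 72.5% of the transporter pair in microglia and 0.195% to 1.18% in astrocytes, where Slc16a1, the widely expressed transporter, held the rest. The Slc16a1 share differed by -63.9 percentage points ± 7.61 (SD, n = 9 mice; exact p = 0.00391, adjusted p = 0.00503). Astrocyte RNA would bring 13.4% to 67.4% of the Slc16a1 counts of WT microglia and 8.31% to 33.6% of those in APP. With the RNA of the other cell type subtracted, the difference was -71.8 percentage points. For the lactate dehydrogenases the difference depended on genotype. Ldha, whose product favours lactate formation, accounted for 20.3% to 22.8% in WT microglia, which overlaps the 14.1% to 24.95% of astrocytes, but 44.7% to 48.7% in APP microglia. Over all mice its share was 14.5 percentage points ± 10.7 higher in microglia (SD, n = 9 mice; exact p = 0.00781, adjusted p = 0.00879), and Ldhb, whose product favours pyruvate formation, took the rest.

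Among glucose transporters Slc2a1, the transporter of the blood-brain barrier and glia, made up 93.03% to 95.7% of the pair in microglia and 99.3% to 99.6% in astrocytes, with Slc2a3, the high-affinity transporter known from neurons and leukocytes, as the remainder (difference -4.74 percentage points ± 0.986, exact p = 0.00391, n = 9). Of the HIF alpha pair among the members, Hif1a held 97.8% or more in every microglia library and 67.4% to 91.0% in astrocytes. Hif3a, a variant subunit that can oppose the others, was the rest (difference 16.1 percentage points ± 6.66, exact p = 0.00391, n = 9). Epas1, another alpha subunit gene, is outside the 35 and not in these shares. Scaled over all 18 libraries, its mean was 893.6 CPM in WT and 1231 CPM in APP astrocytes, against 31.4 and 35.3 CPM in microglia. Hif1a is thus the main gene of this pair in astrocytes, not of all alpha subunits. The prolyl hydroxylase pair did not pass. Egln1, the main oxygen sensor, held 94.8% to 95.9% in WT microglia, 35.3% to 48.7% in APP microglia and 84.3% to 91.3% in astrocytes, so the sign of the difference depended on genotype (mean -23.2 percentage points ± 29.1, exact p = 0.0625, n = 9).

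Most members were lower in microglia than in astrocytes of WT mice, and most were higher in APP mice. In WT, 7 members were higher in microglia and 23 lower (edgeR over 18 libraries, adjusted p under 0.05), 88.2% of the 34 tested against 80.1% of all genes, with 37.9% of genes higher and 42.3% lower. In APP 19 were higher and 12 lower, 91.2% against 81.1% of all genes (40.7% higher, 40.4% lower). The shares called in either direction lie near the background. Fewer cells of a type and less RNA per cell cannot be told apart in bulk libraries, here and below.

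The 8 tested genes of lower glycolysis, from aldolase to pyruvate kinase, were all lower in WT microglia than in WT astrocytes. In APP 5 of them were higher in microglia (Aldoa, Tpi1, Gapdh, Pgam1 and Pkm), 2 lower (Aldoc and Eno2) and Pgk1 was not called. Tpi1, which interconverts the triose phosphates, differed by -1.93 on the log2 scale in WT (SE 0.15, adjusted p = 8.05e-09) and by 0.55 in APP (SE 0.14, adjusted p = 0.00166). Pkm, pyruvate kinase, differed by -1.12 (SE 0.13) in WT and 0.80 (SE 0.12) in APP. Gapdh, the triose phosphate dehydrogenase, differed by -1.65 (SE 0.16) in WT and by 0.43 (SE 0.15, adjusted p = 0.0155) in APP, and the latter call was lost with DESeq2, with upper-quartile scaling, without WT mouse 1 and without APP mouse 3 (adjusted p of 0.0526 to 0.0803). The Eno2 difference in APP, -1.46, was -0.52 without APP mouse 1 (adjusted p = 0.375). All 7 members that were higher in WT microglia were also higher in APP microglia. They were Hk3 (10.81 in WT and 7.82 in APP), P4ha1 (0.79 and 1.215), Pfkfb4 (1.02 and 1.53), Hk2 (6.68 and 5.91), Slc16a3 (5.01 and 5.53), Pfkfb3 (1.81 and 3.22) and Pdk1, the kinase that shuts pyruvate dehydrogenase (2.17 and 2.28).

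Per kilobase of exon, the mean levels of WT astrocytes were led by Aldoc with 1031 ± 198 CPM per kb, Slc2a1 with 216.8 ± 63.8 and Ldhb with 210.2 ± 32.4 (SD, n = 4). WT microglia were led by Ldhb with 105.7, P4ha1, a collagen prolyl hydroxylase subunit, with 98.06, and Hk2 with 91.90 CPM per kb. In APP microglia Aldoa stood at 208.5, Pkm at 179.3 and Hif1a at 172.2 CPM per kb (n = 5), against 64.60, 48.64 and 27.70 in WT.

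**Figure D2:**
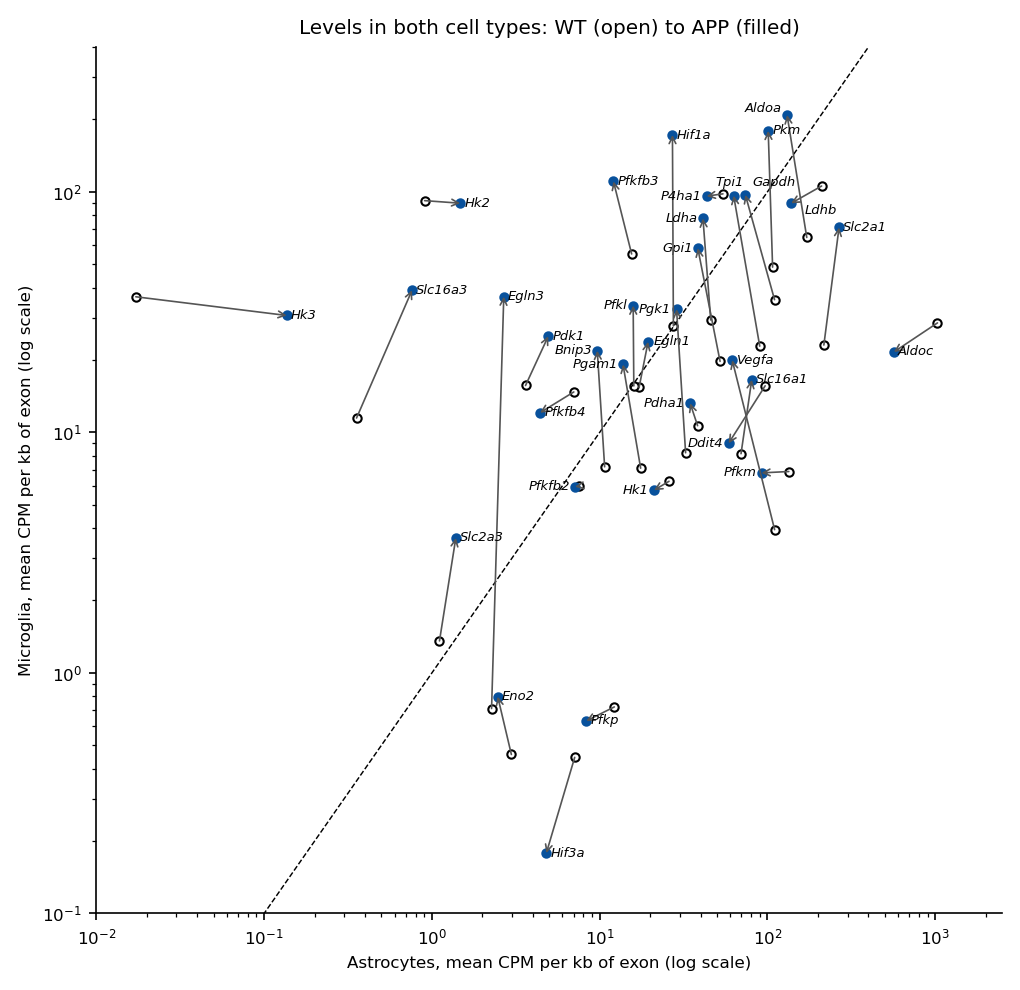
Mean level of 34 members in astrocytes (horizontal axis) and microglia (vertical axis), in CPM per kilobase of exon, scaled over all 18 libraries, on log scales, with open points for WT, filled points for APP, an arrow from the first to the second and equality as the dashed line. Arrows point upward for most genes, and Tpi1, Gapdh, Pkm and Aldoa pass from below the line to above it.

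The second comparison asks how each gene responded to the APP genotype in microglia. Both glucose transporters, 6 of 8 tested genes of lower glycolysis, Ldha, both lactate transporters, Hif1a and Egln3 rose, while the 3 hexokinases did not pass the test. At the phosphofructokinase step 2 of 6 rose, 1 fell and 3 were not called. Of 34 members tested, 21 were higher and 4 lower in APP, 73.5%, where 38.3% of all genes tested were called (19.1% higher, 19.2% lower; edgeR quasi-likelihood test with sex as covariate, Benjamini-Hochberg adjusted over all genes). The median log2 fold change of the members was 0.98 against 0.01 for all genes. In 21 members the 5 APP libraries were each above the highest WT library, which 19.8% of genes did, and in 0 members below, which 19.2% of genes did. These are descriptions of a chosen list, with no test of the list.

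**Figure D3:**
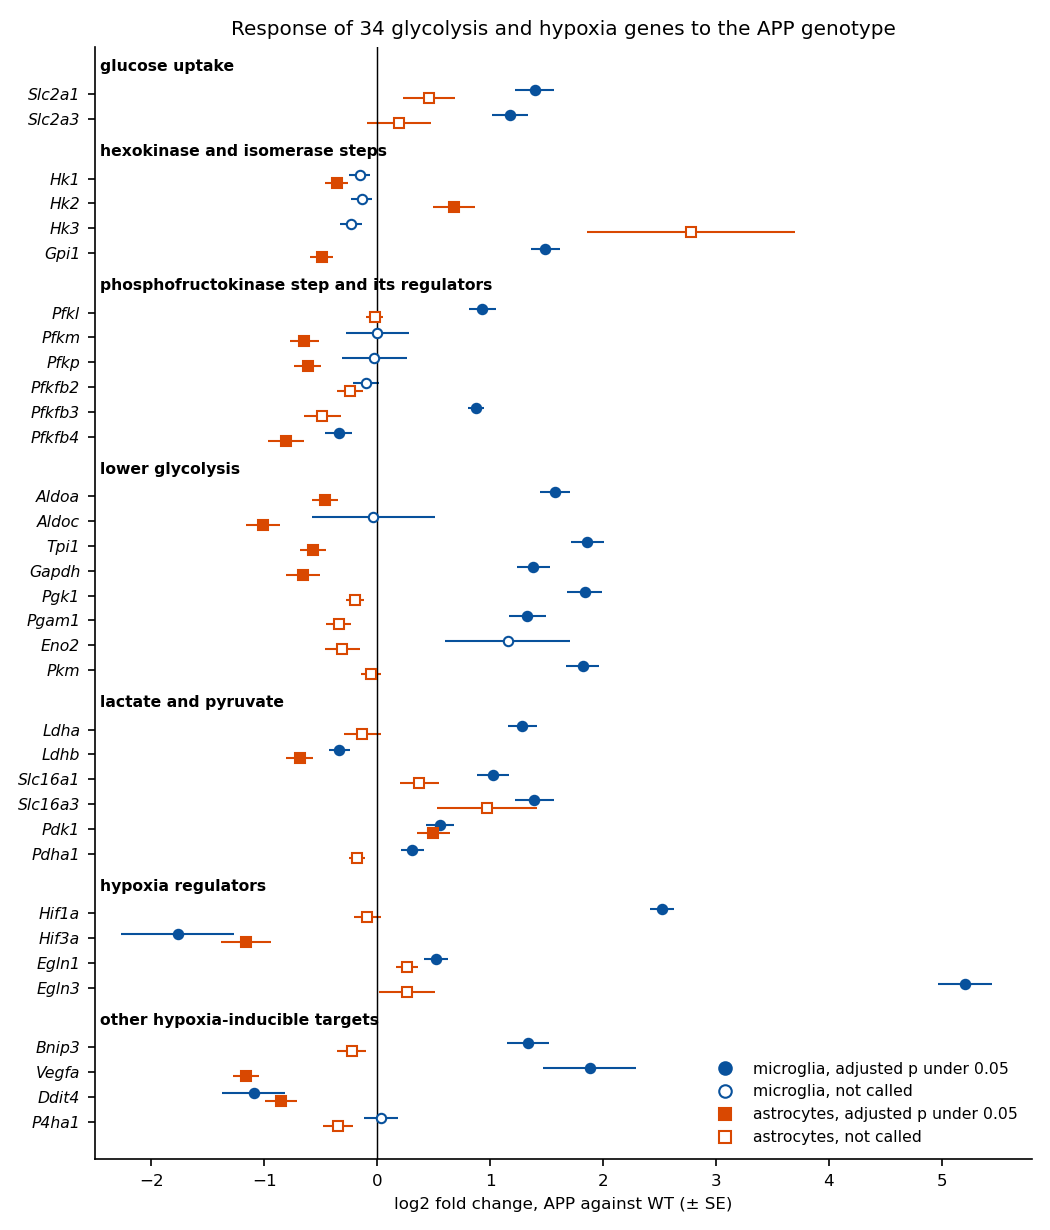
Log2 fold change, APP against WT, with its SE, of the 34 members tested, ordered by role, in microglia (circles) and astrocytes (squares), filled where the adjusted p was under 0.05. Microglial circles of lower glycolysis lie between -0.03 and 1.86 and the astrocyte squares of the same genes between -1.01 and -0.05.

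Both glucose transporters rose in microglia. Slc2a1 (chromosome 4, 119108711 to 119137983, GRCm38) stood at 70.3, 83.8, 76.2 and 67.5 CPM in WT 1 to 4 and at 149, 212, 241, 261 and 273 CPM in APP 1 to 5. The lowest APP library was above the highest WT library (log2 fold change 1.39, SE 0.174, adjusted p = 7.48e-05). Astrocyte RNA would bring 12.7% to 74.9% of these counts in WT and 6.06% to 29.8% in APP. Slc2a3 rose from a range of 7.72 to 10.45 CPM in WT to 18.2 to 29.5 CPM in APP (1.18, SE 0.16, adjusted p = 0.000143).

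Hexokinase RNA did not move with the transporters. Hk2 stood at 537, 471, 507 and 516 CPM in WT and 441, 453, 502, 480 and 565 CPM in APP, which overlap (-0.14, SE 0.09, adjusted p = 0.25). Hk1 (-0.15, adjusted p = 0.227) and Hk3 (-0.23, adjusted p = 0.0828) were not called either, and Hk3 was called lower without the sex covariate, in females alone and without APP mouse 1. Gpi1, the isomerase that follows hexokinase, was the member of these steps that passed, with 109 to 126 CPM in WT and 290 to 408 CPM in APP (1.49, SE 0.13, adjusted p = 4.4e-06).

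At the committed step the gene that rose was the one microglia mostly use. Pfkl stood at 98.4, 99.3, 94.5 and 92.2 CPM in WT and at 157, 202, 200, 210 and 256 CPM in APP (0.93, SE 0.12, adjusted p = 8.89e-05). Pfkm (0.00) and Pfkp (-0.03), for which astrocyte RNA would bring 42.3% or more of the counts in every microglia library, were not called. Pfkfb3, the bifunctional enzyme with the strongest activating side, rose from 441, 372, 364 and 367.5 CPM in WT to 706, 800.5, 757, 782 and 763 CPM in APP (0.88, SE 0.07, adjusted p = 2.78e-06), while Pfkfb2 was not called. Pfkfb4 was called lower (-0.34, SE 0.12, adjusted p = 0.0428), a call lost in 7 of the 9 fits that leave out 1 library, with -0.13 without WT mouse 1 (adjusted p = 0.654).

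Of lower glycolysis 6 of 8 tested genes rose and 0 fell. Tpi1 (chromosome 6, 124810586 to 124814296) stood at 60.3, 58.1, 61.2 and 52.4 CPM in WT and at 177, 225, 231, 260 and 317 CPM in APP, with no overlap (log2 fold change 1.86, SE 0.146, adjusted p = 2.35e-06). Pkm went from 216, 224, 238 and 220 CPM to 725, 781, 723, 778 and 1082 CPM (1.82, SE 0.14, adjusted p = 2.35e-06), the APP 5 library being the highest. Aldoa rose from 207 to 234 CPM in WT to 554 to 863 CPM in APP (1.58), Pgk1, phosphoglycerate kinase, from 16.4 to 18.1 to 53.2 to 87.8 CPM (1.84), Gapdh by 1.38 and Pgam1, phosphoglycerate mutase, by 1.33. Aldoc (-0.03) and Eno2, the neuronal enolase (1.16, adjusted p = 0.123), were not called. Eno2 had 5 to 61 counts per library here and was called higher in 5 of 21 alternative fits, with 2.702 without APP mouse 1 (adjusted p = 0.0142).

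**Figure D4:**
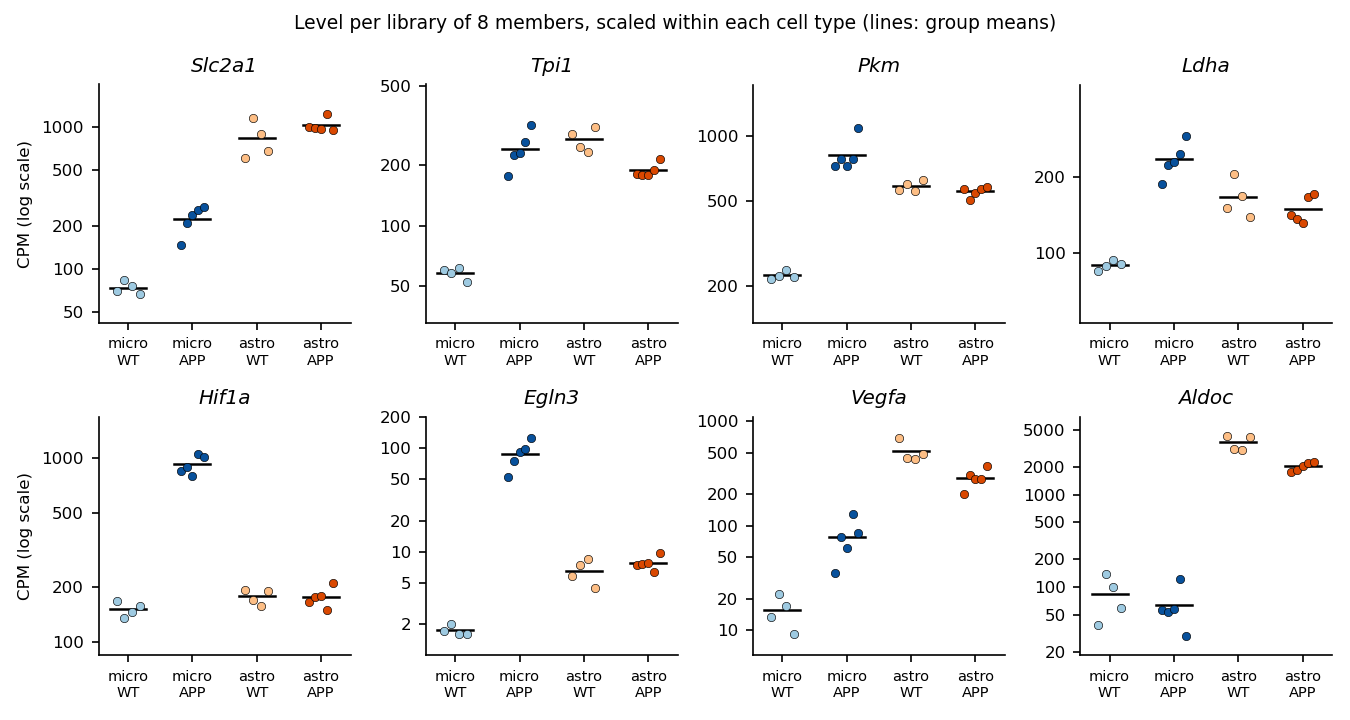
Level of 8 members in CPM (vertical axis, log scale, scaled within each cell type), 1 point per library and a line at the mean of each cell type and genotype. Hif1a and Egln3 stand apart in the 5 APP microglia libraries, and Vegfa and Aldoc are lower in APP than in WT astrocytes.

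RNA of the genes for lactate formation and transport rose, apart from Ldhb. Ldha stood at 85.0, 88.6, 94.1 and 90.7 CPM in WT and at 187, 222, 227, 245 and 288 CPM in APP (1.29, SE 0.13, adjusted p = 1.22e-05), while Ldhb was called lower (-0.33, SE 0.095, adjusted p = 0.0161) with overlapping groups. The Ldhb call was lost without APP mouse 1 (-0.18, adjusted p = 0.249). Slc16a3 rose from 66.6, 43.6, 58.8 and 57.7 CPM in WT to 118, 160, 218.5, 199 and 248 CPM in APP (1.39, SE 0.175, adjusted p = 7.93e-05), and Slc16a1 by 1.03 (SE 0.14, adjusted p = 0.000137). Astrocyte RNA would bring 13.4% to 67.4% of the Slc16a1 counts in WT and 8.31% to 33.6% in APP. With it subtracted the Slc16a1 value was 1.23 (adjusted p = 0.00091). Pdk1 rose by 0.56 (SE 0.13, adjusted p = 0.00472) and Pdha1, the catalytic subunit of the pyruvate dehydrogenase that it inhibits, by 0.31 (SE 0.10, adjusted p = 0.0333). Without APP mouse 1 Pdk1 was at 0.32 (adjusted p = 0.153), and without WT mouse 1 Pdha1 was at 0.20 (adjusted p = 0.385).

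The regulators of the hypoxia response gave the steepest changes. Hif1a (chromosome 12, 73901375 to 73947530) stood at 167, 135, 146 and 157 CPM in WT and at 851.5, 902, 805, 1052 and 1019 CPM in APP (2.52, SE 0.108, adjusted p = 2.3e-08). Egln3, a hydroxylase that is itself a HIF target, stood at 1.73, 2.01, 1.62 and 1.61 CPM in WT and at 52.3, 74.9, 92.8, 98.5 and 126 CPM in APP (5.20, SE 0.24, adjusted p = 4.18e-08). It lies on chromosome 12 from 54178981 to 54203860 and went from 15 to 25 counts per library to 626 to 2134. Both genes were called in all 22 alternative fits. Egln1 rose from 50.0 to 52.0 CPM in WT to 67.1 to 92.8 CPM in APP (0.52, SE 0.11, adjusted p = 0.00234), but had an adjusted p of 0.0753 without WT mouse 1. Hif3a was called lower (-1.77, SE 0.50, adjusted p = 0.0151) at 17 to 39 counts in WT and 8 to 33 in APP, and astrocyte RNA would bring 34.1% to 68.2% of these in WT and 98.6% to 140% in APP.

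Of the other hypoxia-inducible targets 2 rose, 1 fell and 1 was not called. Bnip3, a mitochondrial protein of the mitophagy pathway, rose from 14.8, 14.4, 15.4 and 15.6 CPM to 29.5, 40.98, 43.9, 50.8 and 60.3 CPM (1.33, SE 0.185, adjusted p = 0.00017). Vegfa rose from 13.3, 22.04, 17.1 and 9.20 CPM to 35.4, 77.6, 61.5, 129 and 85.6 CPM (1.88, SE 0.41, adjusted p = 0.00363), and was at 1.132 without WT mouse 1 (adjusted p = 0.0926). Astrocyte RNA would bring 76.6% to 111% of the Vegfa counts of WT microglia but 7.55% to 22.8% of those in APP, and with it subtracted the log2 fold change was 5.81 (adjusted p = 3.66e-06). That subtraction takes away most or all of the WT counts, so the size of this value cannot be read as a larger rise. Ddit4, an inhibitor of mTOR signalling that is induced by hypoxia and by glucocorticoids, fell (-1.09, SE 0.28, adjusted p = 0.0086), and was at -0.65 without APP mouse 1 (adjusted p = 0.132). P4ha1 was not called (0.04, adjusted p = 0.878).

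Endothelial and mural RNA moved with genotype in the microglia libraries. The summed endothelial markers were 64.4 to 86.7 CPM in WT and 121.4 to 176.7 CPM in APP, with 1 of 10 called higher and 1 lower, and the mural markers were 26.0 to 180.6 and 224.1 to 279.7 CPM, so neither overlaps between the genotypes. Microglial markers went the other way, with 5 of 10 called lower and 1 higher, and border macrophage markers were 414.8 to 444.5 CPM in WT and 80.7 to 164.6 CPM in APP. The part of these RNAs in the responses was not tested. With the endothelial level as a further covariate, 3 members were called (Pfkfb3, Hif1a and Egln3) and 13 had an unadjusted p under 0.05, and since that level separates the genotypes the covariate and the genotype cannot be told apart. Leaving out WT mouse 1 kept 20 of the 25 calls, losing Pfkfb4, Hif3a, Pdha1, Vegfa and Egln1. In the males alone 21 members were called and in the females alone 23, each with a lone library of 1 genotype.

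The sequence upstream of these genes is shown for 5 of them, because HIF binds the cores ACGTG and GCGTG and the list was chosen to hold hypoxia-inducible genes. Whether HIF acted on any of them here was not tested. The 250 bases before the first-listed RefSeq start (GRCm38.p6) were searched on both strands. ACGTG occurred in 17 of the 34 members with an entry (50.0%), against 16.6% of the first-listed promoters of all 27025 genes, and GCGTG in 18 (52.9%) against 28.2%. Within the members, ACGTG was held by 11 of 20 that rose in APP microglia, 1 of 4 that fell and 5 of 9 that were not called. Those 5 were Hk2, Hk3, Pfkm, Pfkfb2 and P4ha1, whose sequences are not shown. GCGTG went the other way, held by 9 of 20 that rose, 4 of 4 that fell and 4 of 9 that were not called. Either core was held by 75.0%, 100% and 77.8% of them. At the first-listed start, the ACGTG share among the risen members was thus about that of the uncalled ones (55.0% and 55.6%). That parity holds for this start only. Aldoa, Pkm and Vegfa, which all rose, have ACGTG before another listed start. Pdk1, which rose, and Hk1 and Aldoc, which were not called, also have another listed start and do not gain it. The fallen members and the uncalled Pfkp and Eno2 have 1 listed start each and could not gain it. Other starts therefore give no comparison of risen with fallen or uncalled members. Slc2a3 has no entry. The promoters of Egln3 (the largest rise), Ldha, Slc16a3 and Bnip3 and that of Vegfa, which holds neither core in this window, read as follows, 5′ to 3′ on the strand of the gene and up to the base before the start, with both cores and their reverse complements in capitals.

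Egln3: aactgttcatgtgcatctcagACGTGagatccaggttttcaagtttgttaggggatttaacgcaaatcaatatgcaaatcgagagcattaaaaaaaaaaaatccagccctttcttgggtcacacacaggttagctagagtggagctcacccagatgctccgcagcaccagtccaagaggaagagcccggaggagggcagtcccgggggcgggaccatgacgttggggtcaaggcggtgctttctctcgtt
Ldha: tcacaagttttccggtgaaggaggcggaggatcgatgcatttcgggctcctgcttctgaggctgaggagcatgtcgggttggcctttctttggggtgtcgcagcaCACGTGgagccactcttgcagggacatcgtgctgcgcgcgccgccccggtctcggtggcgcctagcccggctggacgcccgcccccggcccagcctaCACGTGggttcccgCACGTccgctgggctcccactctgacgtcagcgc
Slc16a3: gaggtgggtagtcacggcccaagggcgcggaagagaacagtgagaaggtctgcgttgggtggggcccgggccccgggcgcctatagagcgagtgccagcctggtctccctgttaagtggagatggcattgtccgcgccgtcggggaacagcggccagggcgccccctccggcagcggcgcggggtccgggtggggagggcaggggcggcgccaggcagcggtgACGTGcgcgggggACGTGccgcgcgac
Bnip3: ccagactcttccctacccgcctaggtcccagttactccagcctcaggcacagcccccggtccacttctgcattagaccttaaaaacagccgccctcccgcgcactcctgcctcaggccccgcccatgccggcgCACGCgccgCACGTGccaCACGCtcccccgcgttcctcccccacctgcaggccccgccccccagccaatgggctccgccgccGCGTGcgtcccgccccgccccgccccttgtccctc
Vegfa: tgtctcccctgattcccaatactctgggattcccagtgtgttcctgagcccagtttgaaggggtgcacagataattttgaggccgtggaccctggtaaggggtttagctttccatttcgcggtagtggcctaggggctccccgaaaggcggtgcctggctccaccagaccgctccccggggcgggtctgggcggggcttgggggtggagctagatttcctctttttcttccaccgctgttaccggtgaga

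These windows are chr12:54203875-54204124, minus strand (Egln3), chr7:46845554-46845803, plus strand (Ldha), chr11:120948817-120949066, plus strand (Slc16a3), chr7:138909507-138909756, minus strand (Bnip3) and chr17:46032378-46032627, minus strand (Vegfa). In Egln3 the single ACGTG begins 229 bases before the start. Ldha holds 5 matches to ACGTG in 3 places, the nearest 34 bases before the start. In Slc16a3 both matches lie close to the start, at 27 and 14 bases, and in Bnip3 ACGTG and GCGTG matches lie 35 to 117 bases before it. The palindrome CACGTG, present in Ldha and Bnip3, counts as a match on each strand, and a match describes letters only. Of the starts 31 of 34 lie in an annotated transcript of the same gene, and that of Ldha does not.

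The third comparison asks the same of astrocytes, where the direction was mostly downward and the calls rested on few mice. Of 34 members 2 were higher and 13 lower in APP, 44.1%, against 25.6% of all genes (12.1% higher, 13.5% lower), with a median log2 fold change of -0.28 against 0.01. In 11 members each APP library was below the lowest WT library, which 11.5% of genes did, and in 3 above, which 9.91% of genes did. Without WT mouse 1, the only WT female, edgeR called 0 members, and 13 had an unadjusted p under 0.05, 12 of them with a negative log2 fold change. In the males alone edgeR also called 0, with 4 at an unadjusted p under 0.05, where APP 1 is the lone APP library. All 15 kept their sign in both fits. Without WT mice 1 and 4 1 member, Vegfa, was called, and with the endothelial level as covariate Vegfa, Aldoc and Ldhb were called, all lower.

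Summed astrocyte markers were 31910 to 44690 CPM in WT and 24560 to 28620 CPM in APP astrocytes, with 7 of 10 called lower and 1 higher, and endothelial markers had the WT split described above. Their part in the changes below was not tested. Among the members, the main astrocyte gene fell in 4 families, those of Aldoc, Ldhb, Pfkm and Hk1. It was not called in the families of Slc2a1, Slc16a1, Pfkfb3, Hif1a and Egln1.

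Aldoc stood at 4336, 3074, 3043 and 4210 CPM in WT and at 1777, 1838, 2041, 2183 and 2262 CPM in APP, with no overlap (-1.01, SE 0.15, adjusted p = 0.00522). The 2 highest WT libraries were mice 1 and 4, and without them the log2 fold change was -0.79 (adjusted p = 0.0731). Ldhb stood at 413, 315, 309 and 401 CPM in WT and 229, 214, 251, 238 and 254 CPM in APP (-0.69, SE 0.12, adjusted p = 0.00771). Pfkm stood at 542, 426, 403 and 580 CPM in WT and 303 to 365 CPM in APP (-0.64, SE 0.13, adjusted p = 0.0124), and Hk1 at 215.5 to 262 CPM in WT and 181 to 221 CPM in APP, which overlap (-0.36, SE 0.10, adjusted p = 0.0297). Without WT mouse 1 the adjusted p of these 4 was 0.16, 0.191, 0.207 and 0.276. Without WT mice 1 and 4, Ldhb was at -0.46 (adjusted p = 0.126), Pfkm at -0.46 (adjusted p = 0.103) and Hk1 at -0.29 (adjusted p = 0.282).

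Other glycolytic genes that fell in astrocytes were Gapdh (-0.65), Pfkp (-0.62), Tpi1 (-0.57), Gpi1 (-0.49) and Aldoa (-0.46), with adjusted p of 0.0108 to 0.0223, and of 0.132 to 0.311 without WT mice 1 and 4. Tpi1 stood at 287, 247, 234 and 311 CPM in WT and at 180, 180, 178, 191 and 215 CPM in APP. Pkm (-0.05, adjusted p = 0.667), Pgk1 (-0.19, adjusted p = 0.101), Ldha (-0.13, adjusted p = 0.56) and Pfkl (-0.02, adjusted p = 0.859) were not called. Pfkfb4 fell by 0.81 on the log2 scale (adjusted p = 0.0118, and 0.129 without WT mice 1 and 4) and Pfkfb3 was not called (-0.49, adjusted p = 0.059). Also not called were Hk3 (2.78, adjusted p = 0.0538), Pgam1 (-0.34, adjusted p = 0.0537), Eno2 (-0.31, adjusted p = 0.157), Pfkfb2 (-0.24, adjusted p = 0.143) and Pdha1 (-0.18, adjusted p = 0.0859).

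Among the hypoxia genes Vegfa fell with the smallest adjusted p. It stood at 690, 447, 439 and 483 CPM in WT and at 202, 308, 282, 278 and 371 CPM in APP, with no overlap (-1.16, SE 0.115, adjusted p = 0.00156). The value was -1.19 without WT mouse 1 (adjusted p = 0.0794) and -1.14 without WT mice 1 and 4 (adjusted p = 0.0422). Ddit4 fell (-0.85, SE 0.14, adjusted p = 0.00749), and Hif3a was called lower (-1.16, SE 0.22, adjusted p = 0.0108) with overlapping groups, with WT 1 at 105.5 CPM, the other 3 WT libraries at 26.0 to 42.95 CPM and APP at 18.5 to 48.7 CPM. Hif3a had an adjusted p of 0.253 without WT mouse 1. Without WT mice 1 and 4 the adjusted p was 0.299 for Hif3a and 0.0829 for Ddit4. Hif1a was not called, with 192, 170, 157 and 188 CPM in WT and 164.5, 174, 177, 149 and 208 CPM in APP (-0.09, SE 0.12, adjusted p = 0.594), and Egln3 (0.26, adjusted p = 0.437) and Egln1 (0.27, adjusted p = 0.0709) were not called. Neither were P4ha1 (-0.35, adjusted p = 0.0807) and Bnip3 (-0.225, adjusted p = 0.203).

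The 2 astrocyte rises were Hk2 and Pdk1. Hk2 stood at 5.13, 5.62, 6.47 and 6.32 CPM in WT and 8.11, 10.3, 11.8, 8.56 and 9.28 CPM in APP (0.68, SE 0.185, adjusted p = 0.0285). Microglial RNA would bring 25.9% to 35.4% of these counts in WT and 46.6% to 58.9% in APP, and with it subtracted the value was 0.16 (adjusted p = 0.684). The same estimate exceeded the Hk3 counts of these libraries, so the subtraction may take away too much. Pdk1 rose by 0.50 (SE 0.147, adjusted p = 0.0383), a call kept in 10 of 22 alternative fits, and was at 0.47 with the microglial share subtracted (adjusted p = 0.0515) and 0.31 without WT mouse 1 (adjusted p = 0.432). With the replicate number as a block, the adjusted p was 0.0645 for Hk2 and 0.0559 for Pdk1, and without WT mice 1 and 4 it was 0.416 and 0.487.

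Slc2a1 and Slc16a1, which the endothelium of the brain also expresses, followed the WT split. Slc2a1 stood at 605 and 671 CPM in WT 1 and 4, 1145 and 892 CPM in WT 2 and 3, and 951 to 1235 CPM in APP astrocytes (0.46, SE 0.23, adjusted p = 0.154). Slc16a1 stood at 256 and 278.5 CPM in WT 1 and 4, 446 and 361 CPM in WT 2 and 3, and 374.5 to 412 CPM in APP (0.37, adjusted p = 0.134). Both were called higher in females alone, where WT 1 is the lone WT library, with 0.75 (adjusted p = 0.0224) and 0.58 (adjusted p = 0.00904), and in the fit without WT mouse 2. With the endothelial level as covariate the values were -0.01 (adjusted p = 0.97) and near 0 (adjusted p = 0.996). Slc2a3 (0.20, adjusted p = 0.615) and Slc16a3 (0.97, adjusted p = 0.129) were not called, and microglial RNA would bring 5.32% to 28.1% of the Slc16a3 counts of WT astrocytes and 33.7% to 56.9% of those in APP.

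**Figure D5:**
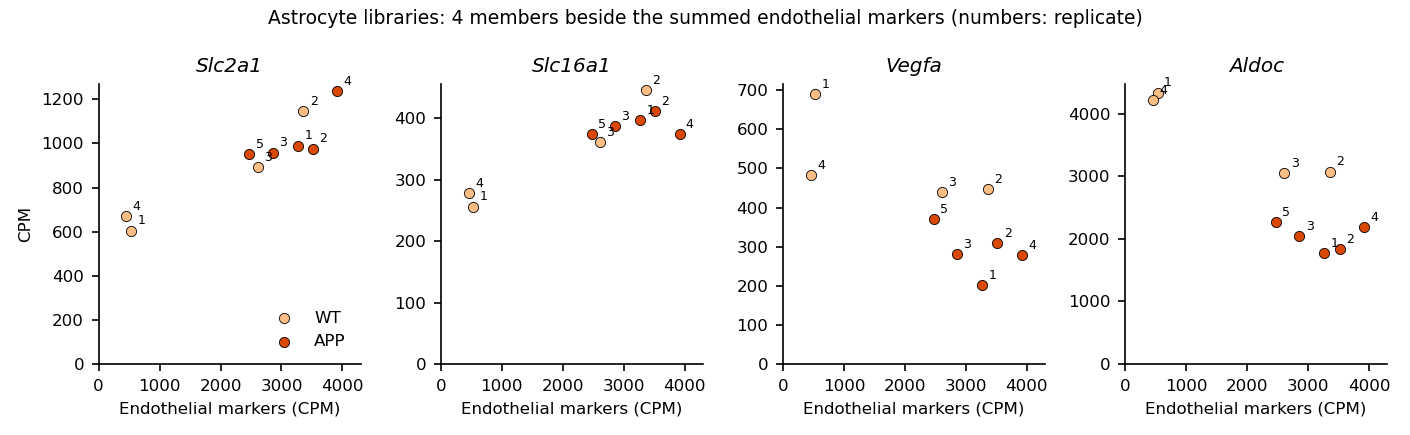
Level of 4 members in the 9 astrocyte libraries (vertical axis, CPM) against the summed CPM of 10 endothelial markers (horizontal axis), with the replicate number beside each point. WT 1 and WT 4, at 531.5 and 456.3 CPM of endothelial markers, have the lowest Slc2a1 and Slc16a1 and the highest Aldoc.

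The last comparison tested whether the response differed between the cell types, as an interaction over all 18 libraries given as microglia minus astrocytes. Of 34 members 17 had a more positive and 2 a more negative response in microglia, 55.9% against 21.4% of all genes (12.5% and 8.91%). The widest positive differences were Egln3 with 5.03 (SE 0.38, adjusted p = 3.55e-07), Vegfa with 3.12, Hif1a with 2.66 and Tpi1 with 2.48 on the log2 scale. Vegfa and Tpi1 had called responses of opposite direction in the 2 cell types, as did Aldoa (2.09), Gapdh (2.09) and Gpi1 (2.03). Pgk1 (2.08), Pkm (1.92), Pgam1 (1.72), Bnip3 (1.61), Ldha (1.47) and Pfkfb3 (1.41) were called in microglia and not in astrocytes. The 2 negative ones were Hk2 (-0.77) and Hk3 (-2.99), of which the latter rests on 0 to 3 counts in WT astrocytes and 3 to 15 in APP. In APP astrocytes microglial RNA would bring 46.6% to 58.9% of the Hk2 counts and at least 130% of the Hk3 counts. With it subtracted, which may take away too much, the astrocyte response of Hk2 was 0.16. The interaction was not refitted with that RNA subtracted, so its part in these 2 differences was not tested.

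Leaving out each mouse in turn gave 14 to 19 called members. Without WT mouse 1, and also without WT mice 1 and 4, 14 were called and Slc2a1, Hk2, Hk3, Pfkl and Pdha1 were lost. With the mouse as a block, which takes into account that both libraries came from 1 animal, 21 were called, adding Pfkfb4 and Slc16a1. The calls of Slc2a1 (0.98, adjusted p = 0.0492) and Slc2a3 (1.03, adjusted p = 0.0369) were kept in 9 and 10 of 17 alternative fits. Pfkfb4, Ldhb, Hif3a and Ddit4 were called lower in both cell types, and the difference of their responses was not called, with adjusted p of 0.0804, 0.0964, 0.51 and 0.763. Their astrocyte calls were all lost without WT mouse 1. In microglia Pfkfb4 and Hif3a were lost without WT mouse 1, and Ldhb and Ddit4 without APP mouse 1.

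Genes of the same pathways outside the 35 were read from lists drawn up by function, with earlier results of these data known. Their counts are therefore descriptions and not independent support. Of 24 other hypoxia-inducible genes, 13 of the 19 tested in microglia were higher and 2 lower in APP (median 0.83), where 19.1% of all genes were higher and 19.2% lower. In astrocytes 4 were higher and 3 lower of 24, near the 25.6% of all genes called. Bhlhe40, a transcription repressor induced by hypoxia, rose from a mean of 10.6 to 123.7 CPM in microglia (3.464, SE 0.161, adjusted p = 4.32e-08) and fell in astrocytes (-0.64, adjusted p = 0.00891). Lox, a collagen cross-linking enzyme, rose in microglia from 1.95 to 87.4 CPM (5.55). Among 12 HIF subunits and oxygen-sensing genes, 3 rose and 2 fell in microglia, near the 38.3% of all genes called. Arnt2, a partner subunit of HIF, rose by 2.84 (adjusted p = 1.56e-05), and Vhl, which binds hydroxylated HIF, fell in astrocytes (-0.75, adjusted p = 0.00387).

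Genes of the branch pathways changed in both directions in microglia, where 38.3% of all genes were called. Of 12 tested other glycolytic and gluconeogenic enzymes 3 rose, among them Tigar, a phosphatase that opposes the Pfkfb3 product (1.46, adjusted p = 1.62e-05). In the pentose phosphate pathway 3 of 8 rose and 1 fell, with Tkt, transketolase, at 0.67. Slc2a6, a lysosomal hexose transporter, rose from 3.85 to 24.98 CPM (2.77, adjusted p = 3.34e-07), while Slc2a5, the fructose transporter typical of microglia, fell from 676 to 301 CPM (-1.11, adjusted p = 4.53e-05). Of 10 glycogen genes 3 rose and 2 fell in microglia, with a median of -0.03. Gyg, the primer of glycogen, rose by 1.75 and Pygl, a glycogen phosphorylase, by 1.37, and Stbd1, a glycogen-binding protein, fell (-0.89, adjusted p = 0.0129). In astrocytes, which hold most of the glycogen of the brain, 6 of 10 glycogen genes fell and 1 rose (13.5% of all genes were lower and 12.1% higher), led by Ugp2 (-0.87), the synthase Gys1 (-0.81) and the glycogen-targeting subunit Ppp1r3c (-0.95). Of 14 genes of pyruvate and lactate handling 9 fell and 2 rose in astrocytes, with Pdk4 at -0.91 and Pdk2 at -0.80. Without WT mouse 1, 34 of 15129 genes were called in astrocytes in all, against 3836 of 14957 with it, and 142 without WT mice 1 and 4. The list counts were not recomputed without these mice.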

How the data were processed

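Raw counts per gene symbol were used as the authors deposited them, 1 table per cell type, and the authors' deposited log2 values served as an alternative. Per the submitters' processing notes, STAR 2.7.3a and mm10 were used, with limma 3.46.0 and edgeR 3.32.1 among the listed tools. The counter, annotation and strand setting are not stated in any label read here. The deposited tables are named as holding no outliers, and which libraries were left out is not given.

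Here, counts were scaled by TMM and tested in R 4.3.3 with the quasi-likelihood test of edgeR 4.0.16 (filterByExpr with a minimum count of 10 and a minimum total of 15; sex as covariate; Benjamini-Hochberg adjusted p under 0.05 over all genes tested). Within-genotype contrasts of the cell types and the interaction used all 18 libraries. CPM in APP against WT was scaled within a cell type, and CPM per kb over all 18 libraries. Exon lengths and coordinates came from GENCODE vM21 (GRCm38), which held 23376 of 24421 symbols and all 35 members, and promoters from RefSeq GRCm38.p6. Code was tested on simulated data. RNA of the other cell type was estimated as the share of its summed markers in a library relative to the same mouse's library of that type, and was subtracted in 1 alternative.

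Both libraries of a mouse came from 1 animal, per the library names in the labels, and their residuals correlated at 0.0586 to 0.289 over the 9 mice. Alternatives were DESeq2 1.42.0, limma 3.58.1 with voom, upper-quartile scaling, no filter, 50 counts in 4 libraries, no sex covariate, 1 sex alone, each mouse left out, blocks by number or mouse, an endothelial covariate and, for shares, other lengths. The subtraction of the other cell type and the endothelial covariate in microglia were chosen after seeing the data.

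All 35 members are accounted for. From each further pathway list up to 3 called genes per comparison were named, by smallest adjusted p, and 1 gene that this rule gives is not reported here. The members and lists were chosen with earlier results of these data known.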

Additional observations from a re-analysis of the deposited data

Results flagged for a closer look

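Within a group of 4 or 5 libraries, 1 library lay far from the others for 6 of 135 combinations of member and group, and chance alone would give about 1 in 20. These were Slc2a1 in APP 4 astrocytes (1235 CPM, the highest), Hk3 in APP 5 astrocytes (0.128 CPM, the lowest), Pfkfb3 in WT 1 microglia (441.2 CPM, the highest), Pkm in APP 5 microglia (1082 CPM, the highest), Hif3a in APP 4 microglia (2.50 CPM, the highest) and P4ha1 in WT 3 astrocytes (205.3 CPM, the lowest). APP 4 astrocytes also had the highest oligodendrocyte markers, 3648 CPM against 1151 CPM or less in the other astrocyte libraries, and APP 4 microglia had 1768 CPM of astrocyte markers against 982.3 CPM or less in the other APP microglia. Their part in these levels was not tested.

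The APP response differed between the cell types, by the edgeR interaction test, in 19 members, given as the log2 response in microglia minus that in astrocytes. In glucose uptake these were Slc2a1 (0.98) and Slc2a3 (1.03). In the upper steps they were Hk2 (-0.77), Hk3 (-2.99), Gpi1 (2.03), Pfkl (1.00) and Pfkfb3 (1.41). In lower glycolysis they were Aldoa (2.09), Tpi1 (2.48), Gapdh (2.085), Pgk1 (2.08), Pgam1 (1.72) and Pkm (1.92). Among lactate and pyruvate genes they were Ldha (1.465) and Pdha1 (0.54), and among hypoxia genes Hif1a (2.66), Bnip3 (1.61), Vegfa (3.12) and Egln3 (5.03). Microglial RNA would bring 46.6% or more of the Hk2 counts and 130% or more of the Hk3 counts of APP astrocytes. Its part in those differences was not tested.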

How the results depend on the processing

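In microglia 25 members were called, and 20 to 24 when each library was left out, 26 with DESeq2 and 3 with the endothelial covariate, under which Hif3a turned to 0.87 (adjusted p = 0.816); the cause was not tested. In astrocytes 15 were called, and 0 to 20 when each library was left out, 0 in males alone, 1 without WT mice 1 and 4, 3 with the endothelial covariate and 17 with DESeq2; fewer libraries enter the first 3 of these settings. Leaving out each mouse gave 14 to 19 calls for the difference of the response, 28 to 30 between the cell types in WT and 30 to 32 in APP, and 8 of 9 paralog shares passed each time. With the replicate block, whose numbers do not pair mice within a cell type (residual correlations of -0.224 to 0.0126 in microglia and -0.285 to 0.1101 in astrocytes), 26 and 10 members were called. With the mouse as a replicate block 21, 30 and 31 were called for the 3 comparisons over both cell types. The Slc2a1 share difference was -9.21 percentage points without length correction. With the other cell type's share subtracted, the differences were -7.05 (Slc2a1), -93.1 (Hk1), 77.2 (Pfkl), 83.2 (Aldoa) and -71.8 (Slc16a1). Of 3327 values of single members and shares under all alternatives, 3114 were counted as the same, 164 lost the call, 42 gained one, 6 share differences moved and 1 call reversed. Members uncalled in both fits were counted as the same even where the sign changed. Eno2 in microglia was such a case, at 1.156 in the main fit and -0.102 without WT mice 1 and 4.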
